A study of Drosophila melanogaster with 7 samples.

Results

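RNA of 7 genes of the sex determination pathway of *Drosophila melanogaster* was followed in cultured neurons, namely that of *fru*, *dsx*, *tra*, *tra2*, *ix*, *her* and *dsf*. They were picked by symbol among the 17753 genes of the deposited count table, so that 7 of 17753 rows are described. No limit on a measured value was set for the choice, but earlier results of these data were known when it was made. In flies the RNA-binding protein Sex-lethal (Sxl) is made in females, where it steers splicing of *tra* towards a form that encodes Transformer protein. Transformer acts with Transformer-2, the product of *tra2*, on the splicing of *dsx* and of *fru* transcripts, and the resulting female and male forms of the Doublesex and Fruitless transcription factors shape the sex-specific body and nervous system. In the larval nervous system both sexes transcribe these genes, and much of what differs between the sexes is the splice form, which a count summed over all exons of a gene does not resolve.

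The RNA came from 7 control cultures of the strain w1118, each made from the dissociated central nervous systems of 3 third-instar larvae of flies raised at 25 °C and kept for 7 days in vitro. No other condition was analysed here, so no groups were compared and the relations below are across cultures. Males and females were used in equal amounts over the study according to its methods, but no source used here gives the sex of the larvae in a culture, and levels by sex cannot be stated. The cells come from the whole larval nervous system, so neurons are mixed with glia and dividing cells, and in such bulk RNA fewer cells of a type and less RNA per cell cannot be told apart.

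The column names of the table show the condition, but their numbers could not be tied to the numbered cultures of the labels, and the libraries are called A to G here in order of rising total count, from 21178515 to 33891136. No library was a copy of another, since chi-square over genes was 18.7 to 74.1 per degree of freedom for the 21 pairs. Library D, of 26847346 counts, stood apart. Its summed level of 8 photoreceptor markers was 1288 CPM (counts scaled to a common library total), against 110 to 325 CPM in the other libraries, and its 3 yolk protein genes summed to 742 CPM against 24.6 to 239 CPM. The 5 neuronal markers *elav*, *nSyb*, *brp*, *Syt1* and *Syx1A* were detected in every library and summed to 1883 to 2219 CPM, with library D inside that range at 1975 CPM. Where leaving out library D changes the call or the sign of a single relation printed below, the value without it is given too. Other relations also change without library D, and counts of relations include it unless stated. Errors are SD over the 7 libraries, and 95% intervals of single values are Wilson intervals that cover counting error only.

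All 7 genes were detected, meaning at least 10 counts in every library, as were 53.4% of all genes listed. The lowest count of any of them was 30, for *dsx* in library B. By mean level *fru* and *tra2* lay above the median detected gene, which had 24.1 CPM, and the other members lay below it. Of the 9476 detected genes, 62.0% had a lower mean level than *fru*, 48.4% a lower one than *tra* and 15.1% a lower one than *dsf*. These ranks are by CPM without regard to length, which places long genes such as *fru* (18433 exon bases) higher than a rank per length would.

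The *tra* gene (FBgn0003741) encodes the serine-arginine-rich splicing regulator at the centre of the pathway. It lies on chromosome 3L at 16590059 to 16591050 of the dm6 assembly, on the minus strand, with 2 annotated transcripts whose 3′ UTRs are 86 and 744 bases long. Libraries A to G held 23.4, 24.2, 23.6, 23.1, 21.3, 18.7 and 23.7 CPM of *tra*, a mean of 22.6 ± 1.96 CPM. Its level was thus nearly flat, with library F lowest and the highest value only 1.30 times the lowest. Its 862 bases of exon share 74 bases with *l(3)73Ah*, a gene on the opposite strand with 40.7 CPM, and the strand setting of the counting is not known here.

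The partner gene *tra2* (FBgn0003742, chromosome 2R, 14602004 to 14604337, minus strand) encodes an RNA-binding protein of both sexes, with 7 annotated transcripts. It had 36.4, 30.5, 23.6, 24.5, 31.5, 28.2 and 26.4 CPM in libraries A to G, a mean of 28.7 ± 4.46 CPM. Library A was the highest, and libraries C and D were the lowest. The ratio of highest to lowest was 1.54.

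The *fru* gene (FBgn0004652) spans 131314 bases of chromosome 3R, from 18414273 to 18545586 on the minus strand, and has 15 annotated transcripts. It encodes BTB zinc-finger transcription factors, of which the male-specific forms made from its distal promoter are known for male courtship, while other promoters serve both sexes. Libraries A to G held 39.4, 39.0, 56.4, 60.0, 27.1, 35.3 and 45.2 CPM of *fru*, a mean of 43.2 ± 11.6 CPM. Libraries C and D were high and library E was low, a span of 2.21 times, with counts between 774 and 1610. None of its exon bases is shared with another annotated gene.

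The *dsx* gene (FBgn0000504, chromosome 3R, 7924323 to 7967408, minus strand) encodes a DM-domain transcription factor made in a small, sex-dependent set of neurons. Its 7 transcripts carry 3′ UTRs of 1028 to 4394 bases, and 169 of its 9167 exon bases overlap *lds* on the opposite strand, which had 34.0 CPM. Libraries A to G held 2.46, 1.19, 2.18, 6.97, 4.13, 4.75 and 3.04 CPM of *dsx*, a mean of 3.53 ± 1.93 CPM. Library D was the highest and library B the lowest, 5.84 times apart, the widest span of the 7 genes. The intervals of these libraries, 6.04 to 8.04 CPM and 0.836 to 1.70 CPM, did not overlap. Without library D the mean of *dsx* was 2.96 CPM.

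The remaining members act beside or after Doublesex. Intersex, the product of *ix* (FBgn0001276, chromosome 2R, 11359437 to 11360163, minus strand, 1 transcript), is a Mediator subunit that works with the female form of Doublesex. Its lowest, median and highest values were 7.82 CPM in library G, 9.84 CPM in library C and 11.7 CPM in library D, with a mean of 9.72 ± 1.23 CPM. Hermaphrodite, encoded by *her* (FBgn0001185, chromosome 2L, 16677185 to 16679691, plus strand, 2 transcripts), is a zinc-finger protein needed for female differentiation. It had 13.3, 16.9, 14.4, 13.3, 13.3, 12.2 and 9.83 CPM in libraries A to G, a mean of 13.3 ± 2.13 CPM, with library B highest and library G lowest. Of its 2378 exon bases, 10.3% are shared with annotated transposon copies and with *mir-2497*, which had 0 counts in all libraries. Dissatisfaction, encoded by *dsf* (FBgn0015381, chromosome 2L, 5925937 to 5939261, plus strand, 2 transcripts), is an orphan nuclear receptor needed in both sexes for courtship and for parts of the sexual nervous system. The libraries held 2.93, 3.70, 2.61, 4.88, 2.10, 3.60 and 2.30 CPM of *dsf*, a mean of 3.16 ± 0.971 CPM, and its highest value, as for *dsx*, *ix* and *fru*, was that of library D.

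**Figure D1:**
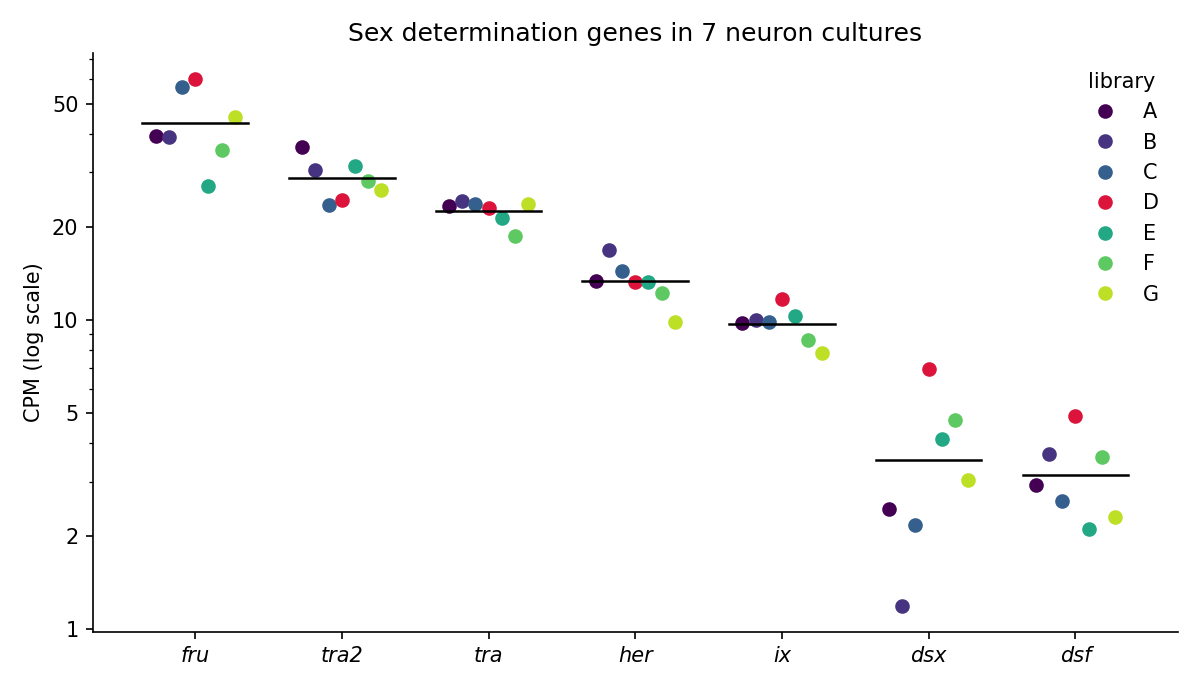
CPM (log axis) of the 7 genes in libraries A to G, 1 point per library, with library D in red and a black line at the mean of the 7. The points of *tra* lie between 18.7 and 24.2 CPM, whereas those of *dsx* run from 1.19 to 6.97 CPM with library D on top.

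Levels of the 7 genes were compared with each other only per length, as CPM per kb of exon. The order was *tra* (26.2 ± 2.27), *tra2* (15.6 ± 2.42), *ix* (13.4 ± 1.69), *her* (5.60 ± 0.895), *fru* (2.34 ± 0.631), *dsf* (0.893 ± 0.274) and *dsx* (0.385 ± 0.211 CPM per kb, all SD, n = 7). The splicing regulator genes *tra* and *tra2* thus came first, then *ix* and *her*, and the transcription factor genes *fru*, *dsf* and *dsx* came last. Ranges over the 7 libraries did not overlap between *tra* and *tra2*, *ix* and *her*, *her* and *fru*, or *fru* and *dsf*. The neighbours *tra2* and *ix* overlapped, with *tra2* higher in 5 of 7 libraries, and so did *dsf* and *dsx*, although *dsf* was higher in 7 of 7.

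The length of *fru* depends on what is counted as the gene, since its exons together cover 18433 bases and its longest transcript 8399. With the longest transcript of each gene the order was the same, but *fru* was at 5.14 ± 1.39 CPM per kb and overlapped *her*, which was then higher in only 4 of 7 libraries. The ranges of *tra* and *tra2* also overlapped on that scale, with *tra* higher in 7 of 7 libraries.

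**Figure D2:**
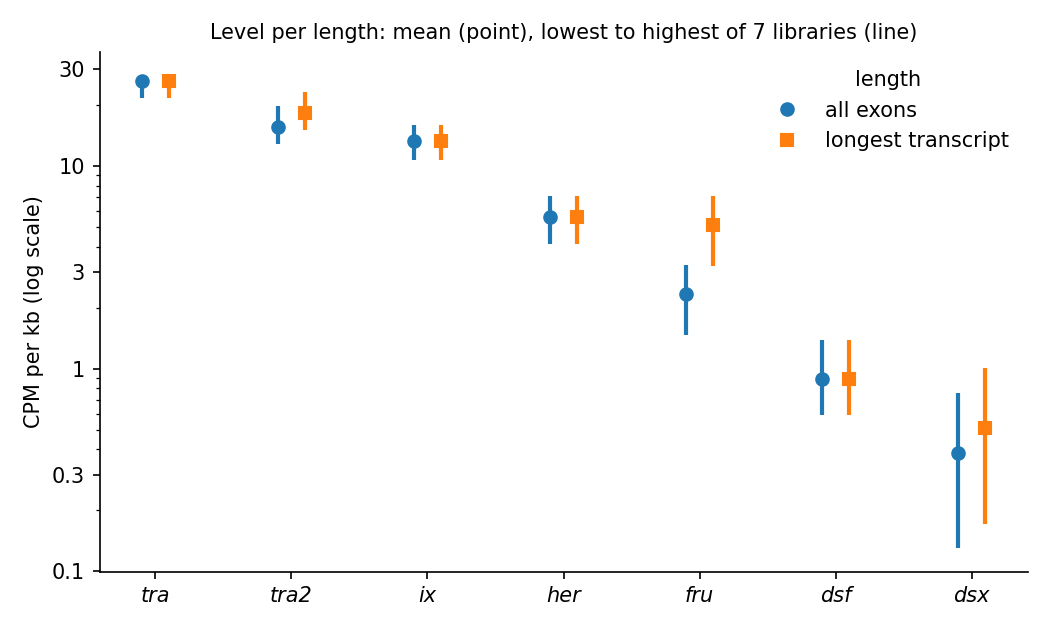
CPM per kb (log axis) of each gene by the length of all its exons (blue) or of its longest transcript (orange), with points for means and lines from the lowest to the highest of the 7 libraries. The order is the same for both lengths, and *fru* moves most, from 2.34 to 5.14 CPM per kb.

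The genes differed in how much they varied between cultures. The spread was measured as the biological coefficient of variation (BCV), an estimate of the variation between samples beyond counting error that is shrunken towards genes of like level. It was 0.441 for *dsx*, 0.319 for *dsf* and 0.209 for *fru*, and between 0.133 and 0.177 for *tra*, *tra2*, *her* and *ix*, beside a median of 0.152 over all detected genes. Low genes have higher values, so each was also read against genes of its own level. In its bin of 473 genes of like level, *fru* had a higher BCV than 97.7% of the genes, and in its bin of 474 genes *dsx* had a higher one than 94.5%. The splicing regulator *tra* was higher than only 12.4% of its bin and *ix* than 13.1%, while *her* (44.3%), *dsf* (58.2%) and *tra2* (66.5%) lay in the middle. The coefficient of variation of the CPM was 26.9% for *fru* and 54.7% for *dsx*, where counting error alone would give 3.04% and 12.0%. Leaving out each library in turn kept the BCV of *fru* between 0.171 and 0.219 and that of *dsx* between 0.372 and 0.467.

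**Figure D3:**
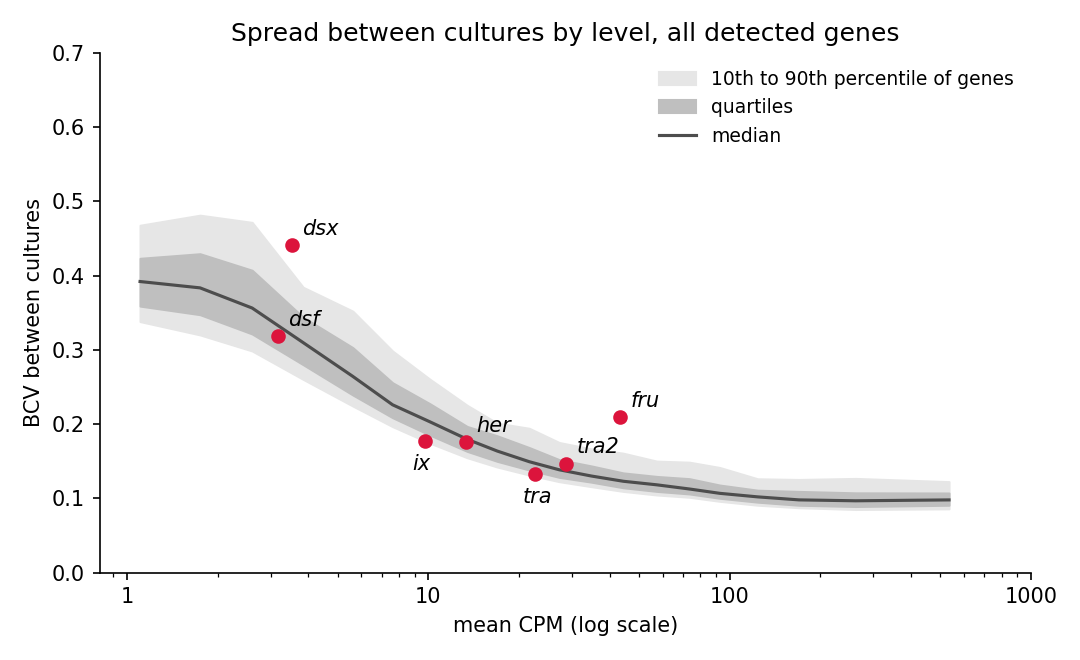
BCV between cultures against mean CPM (log axis), with bands for the 10th to 90th percentile and the quartiles and a line for the median of all detected genes in 20 bins of level, and red points for the 7 genes. *dsx* (0.441) and *fru* (0.209) lie above the 90th percentile of their bins (0.384 and 0.161), and the other 5 lie inside the outer band.

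*fru* varied against *roX1*, *roX2* and *msl-2*, which belong to the machinery of male dosage compensation. This machinery, made of the MSL proteins and the noncoding RNAs roX1 and roX2, raises transcription of the male X chromosome, and Sxl blocks translation of *msl-2* in females. Libraries A to G held 1039, 1081, 538, 132, 1886, 1545 and 1166 CPM of *roX1*. The libraries C and D, low in *roX1*, were the highest in *fru*, and library E, the highest in *roX1*, was the lowest in *fru*. Over the 7 libraries the log2(CPM + 1) values of *fru* and *roX1* had Pearson's r = -0.852 (exact permutation p = 0.00536, two-sided) and Spearman's rho = -0.893 (exact p = 0.0123). The result failed the Benjamini-Hochberg adjustment over 9475 genes, with an adjusted p of 0.368 for r and 0.472 for rho from these exact tests. Without libraries C and D, the farthest from the median of *roX1*, r was -0.861. Without library D alone r was -0.928 (exact p = 0.0153) and rho was -0.829 (exact p = 0.0583).

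The relation must be read against all genes. *fru* was 1 of the 7 members with an unadjusted exact p under 0.05, while 9.06% of all detected genes passed that limit and 5.6% did so with a negative r. No gene passed after adjustment, and the lowest adjusted p of any gene from the exact test of r was 0.235. With 7 libraries the exact p cannot be below 0.000198. Adjustment over all detected genes could thus be passed only if many genes lay near that floor. Failing it, here and below, therefore says little about a single gene. Without library D the number of genes under the unadjusted limit fell from 858 to 550. By Spearman's rho, 784 genes were under the unadjusted limit and 0 after adjustment.

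The other members gave weaker or unstable relations to *roX1*, and 6 of 7 had a negative r. Over all detected genes the median r was -0.0724, so most genes had a negative r too. The r was -0.667 for *dsf* (exact p = 0.0891), -0.626 for *ix* (exact p = 0.154), -0.401 for *dsx* (exact p = 0.389), -0.367 for *tra* (exact p = 0.328) and -0.144 for *her* (exact p = 0.695). Only *tra2* was positive, at r = 0.589 (exact p = 0.162). For *dsx* the sign rested on library D, without which r was 0.602 (exact p = 0.204). For *dsf* the value without single libraries ranged from -0.801 without library F (exact p = 0.05) to -0.0598 without library D (exact p = 0.907), and it was -0.756 without library C (exact p = 0.0361). For *ix* it ranged from -0.802 without library E (exact p = 0.0583) to -0.117 without library D (exact p = 0.799).

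**Figure D4:**
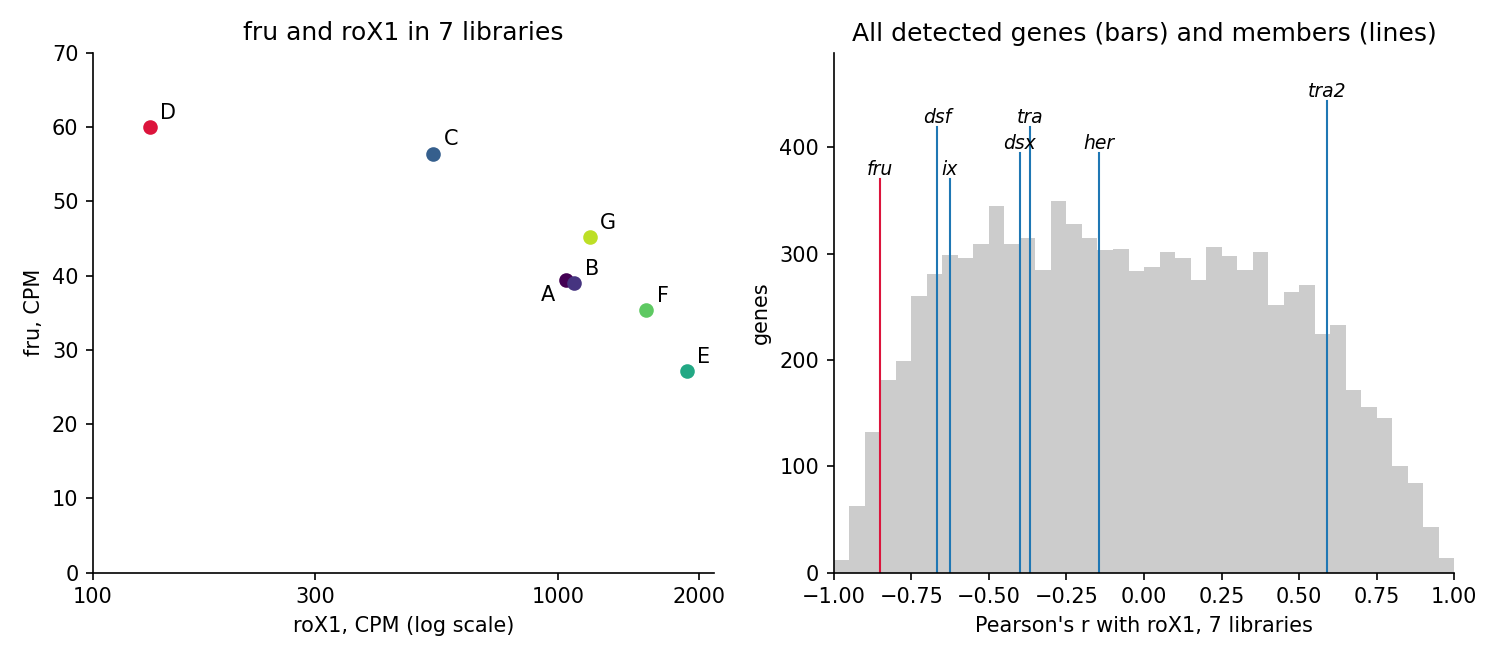
Left, CPM of *fru* against CPM of *roX1* (log axis), 1 labelled point per library, with *fru* at 60.0 CPM in library D, where *roX1* is lowest (132 CPM), and at 27.1 CPM in library E, where it is highest (1886 CPM). Right, the number of detected genes by their r with *roX1* (bars) and the r of the 7 genes (lines), of which *fru* (red, -0.852) lies farthest to the negative side, where other genes also lie.

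The same direction was seen with the other genes of that machinery that vary with *roX1*. *roX2* ranged from 10.9 to 181 CPM and *msl-2*, which encodes the male-limiting subunit, from 55.5 to 143 CPM. The r of *fru* was -0.858 with *roX2* (exact p = 0.00317, adjusted 0.327) and -0.908 with *msl-2* (exact p = 0.00456, adjusted 0.309). Since these genes vary together over the same libraries, the values are not independent of that for *roX1*. The subunit genes *msl-1*, *msl-3*, *mle* and *mof* had coefficients of variation of 6.30% to 13.3%, against 28.7% for *msl-2* and 55.6% for *roX1*. Their correlations with *fru* are not given here, so the direction is stated only for *roX1*, *roX2* and *msl-2*.

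*Sxl*, the switch gene upstream of *tra*, moved with *fru*. Libraries A to G held 318, 225, 348, 372, 136, 227 and 267 CPM of *Sxl* (mean 270.6 ± 82.5 CPM), so libraries C and D were highest and E lowest, as for *fru*. The correlation was r = 0.917 (exact p = 0.00357, adjusted 0.328 over 9475 genes) and rho = 0.929 (exact p = 0.00675). It was 0.75 without libraries D and E, the farthest from the median. Leaving out library E alone gave r = 0.843 (exact p = 0.05, at the limit). Of all detected genes, 9.46% had an unadjusted exact p under 0.05 with *Sxl*. *Sxl* also ran against *msl-2* (r = -0.871, exact p = 0.0125). With *roX1* its r was -0.744 (exact p = 0.0685), and -0.840 without library D (exact p = 0.0403). The relation of *fru* to *Sxl* is thus not independent of those to *roX1* and *msl-2*. *Sxl* protein was not measured, and counts summed over exons include the transcripts of both sexes.

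Among themselves the 7 genes had correlations of both signs. Of 21 pairs, 12 had a positive r, with a median of 0.169, and none had an unadjusted exact p under 0.05. Of all detected genes, 3.85% (*tra*) to 9.60% (*fru*) were under that limit for a member, so the count of pairs is near that share. The extremes among the pairs were *fru* with *tra2* (r = -0.714, exact p = 0.0704, adjusted 0.554) and *ix* with *her* (r = 0.655, exact p = 0.0929). Single libraries moved these values. *fru* with *tra2* ranged from -0.923 without library A (exact p = 0.0153) to -0.616 without library C (exact p = 0.176). *ix* with *her* ranged from 0.217 without library G (exact p = 0.606) to 0.844 without library D (exact p = 0.0222). By rank, 1 pair had an exact p under 0.05, *dsx* with *tra* (rho = -0.786, exact p = 0.0480). Without library D its rho was -0.829 (exact p = 0.0583). For the same pair r was -0.535 over all libraries and -0.828 without library D (exact p = 0.0403).

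The level of *dsx* went with the summed markers of glia, photoreceptors, hemocytes, muscle and fat body and with the yolk protein genes. Of 63 correlations between the 7 genes and the summed CPM of 9 marker lists, 8 had an unadjusted exact p under 0.05, 6 of them of *dsx*. Of all detected genes, 3.13% (germ line) to 11.1% (fat body) were under that limit for a list, with 6.46% for glia. The 6 values of *dsx* are not independent, since these sums and *dsx* were all highest in library D. None passed adjustment over all 9476 detected genes (lowest adjusted p = 0.335 from these exact tests). The 5 glial markers *repo*, *nrv2*, *Gs2*, *moody* and *alrm* were all detected and summed to 97.9 to 150 CPM, highest in library D. Libraries D, E, F and G exceeded A, B and C both in this sum and in *dsx*. The single markers did not keep that order, as *Gs2* had 16.5 CPM in library G and 29.2 CPM in library B, and *moody* was lowest in library F (6.22 CPM). The r of *dsx* with this sum was 0.906 (exact p = 0.00575, adjusted 0.585) and 0.830 without library D (exact p = 0.0389). With the 8 photoreceptor markers, all detected, r was 0.853 (exact p = 0.0155) and 0.739 without library D (exact p = 0.108). With the 3 yolk protein genes, which Doublesex is known to regulate in the fat body, it was 0.835 (exact p = 0.0202) and 0.682 without library D (exact p = 0.146). Without library D, other relations came under the unadjusted limit. For *dsx* with the summed markers of neuroblasts and dividing cells, r went from 0.573 to 0.926 (exact p = 0.00556). For *her* with the hemocyte sum it went from -0.178 to -0.895 (exact p = 0.00694). The part of these cell types in the spread of *dsx* was not tested.

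**Figure D5:**
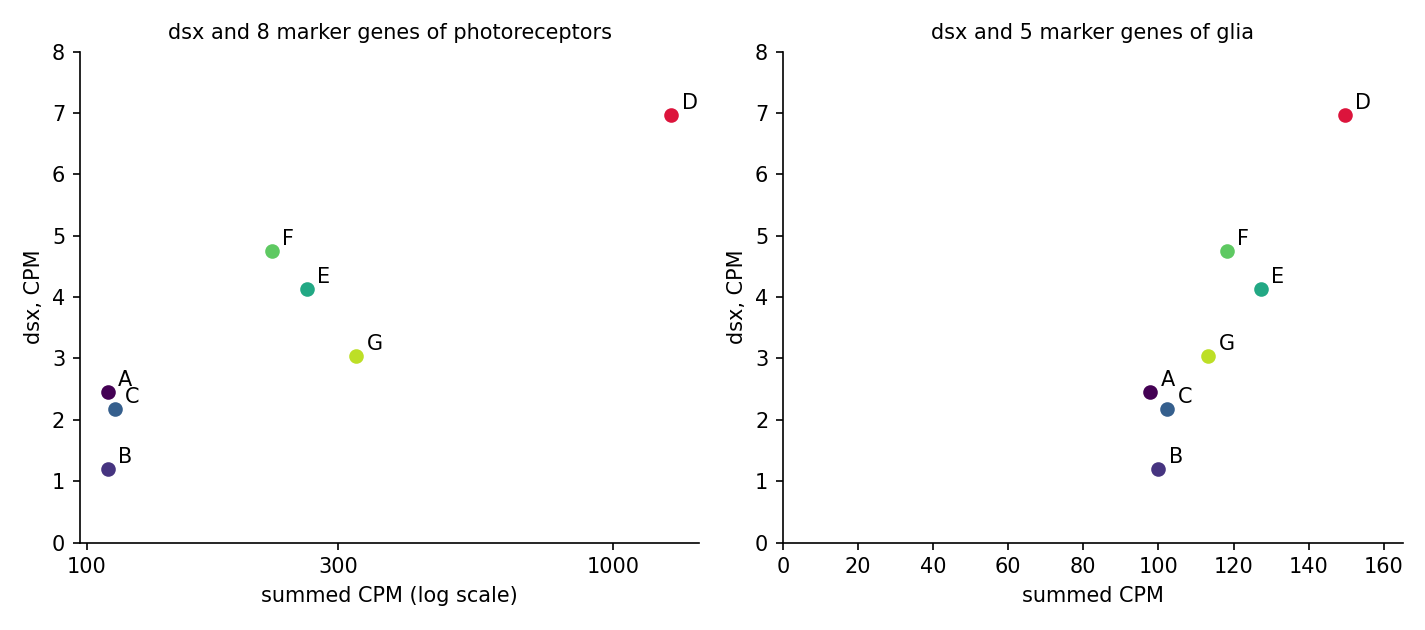
CPM of *dsx* against the summed CPM of 8 photoreceptor markers (left, log axis) and of 5 glial markers (right), 1 labelled point per library. Library D is highest in *dsx* (6.97 CPM) and in both sums (1288 and 150 CPM), and libraries E, F and G lie above A, B and C in *dsx* and in both sums.

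The summed markers of hemocytes, muscle and fat body were also highest in library D, though not every gene of the lists was. Of the genes below the detection limit, *He* and *Fbp1* were highest in library E (0.701 and 1.26 CPM) and *Lsp2* in library B (1.95 CPM). Most of the fat body sum in library D was *apolpp* alone, at 558 CPM. The 5 hemocyte markers, of which 3 were detected and *He* was at 0 in some libraries, summed to 29.7 to 35.1 CPM and to 66.7 CPM in library D, with r = 0.790 to *dsx* (exact p = 0.00615) and 0.855 without library D (exact p = 0.0333). The 5 muscle markers, of which 4 were detected, summed to 12.7 to 29.1 CPM and to 93.6 CPM in library D, with r = 0.839 to *dsx* (exact p = 0.0165) and 0.729 without library D (exact p = 0.1125). The 5 fat body markers, of which 2 were detected and *Fbp2* was at 0 in some libraries, summed to 47.9 to 172 CPM and to 575 CPM in library D, with r = 0.820 to *dsx* (exact p = 0.0238) and 0.646 without library D (exact p = 0.169). The correlations with muscle and fat body markers were thus past the unadjusted limit only with library D included. Markers of the germ line, 4 genes that summed to 53.6 to 77.3 CPM with library D at 67.3 CPM, had no exact p under 0.05 with any of the 7 genes.

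The small spread of *tra* ran against a list of neuroblast and dividing-cell markers. The 6 genes *dpn*, *ase*, *mira*, *wor*, *CycB* and *stg* were all detected and summed to 59.6, 52.4, 57.2, 59.1, 74.8, 84.0 and 59.1 CPM in libraries A to G. Libraries E and F were the highest in this sum and the lowest in *tra*. The correlation was r = -0.965 (exact p = 0.00139, adjusted 0.940 over 9476 genes) and rho = -0.929 (exact p = 0.00675), and it was -0.852 without libraries E and F. It kept an unadjusted exact p under 0.05 without any single library, with r from -0.984 to -0.962, and it failed the adjustment. *ix* ran against the neuronal sum with r = -0.813 (exact p = 0.0236), which was -0.683 without library G (exact p = 0.124), -0.773 without library F (exact p = 0.0833) and at the limit without library A (r = -0.813, exact p = 0.05). Without libraries F and G, the farthest from the median of the neuronal sum, r was only -0.292, so the relation rested largely on these libraries.

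The rest of the pathway was largely present in these cultures. Upstream of *tra*, 11 of 13 genes were detected, the highest *Sxl* and the lowest *dpn* (3.66 CPM), which is also in the neuroblast list. The X-linked signal element *sisA*, known to act in the early embryo, and the proneural gene *sc* had 0.274 and 0.632 CPM and were not called detected. Of the splicing partners of Transformer, the SR protein gene *SF2* had 135 CPM and the kinase gene *Doa* 105 CPM, and both were detected. So were the 3 partners of Fruitless, from the corepressor gene *bon* (142 CPM) to the deacetylase gene *HDAC1* (56.8 CPM). All 7 genes of male dosage compensation were detected.

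Of 9 genes known from other tissues or stages to be regulated by Doublesex or Fruitless, 7 were detected. The highest was *robo1*, the axon guidance receptor gene, at 186 CPM, and the lowest *bab1*, a pigmentation regulator, at 14.7 CPM. *Yp1*, a yolk protein gene, had 13.0 to 116 CPM in 6 libraries and 378 CPM in library D, and all 3 yolk protein genes also form the yolk marker list. *Fad2*, a desaturase gene of female pheromone synthesis, and *to*, known from the fat body of male heads, were not called detected and were at 0 in some libraries. Of 3 other genes of sexual behaviour, all were detected, from *qtc* (217 CPM) to *retn* (3.84 CPM), with *lov* at 22.4 ± 2.60 CPM.

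The genes whose pattern over the 7 libraries was most like that of each member were found by Pearson's r among all detected genes and are given as a description only. For *fru* they were *CG4829* (r = 0.976), *CG17163* (0.974) and *CG12402* (0.972). For *dsx* they were *Tsp42El* (0.980), a tetraspanin gene, *CG10660* (0.974) and *Eaat1* (0.972), the glutamate transporter gene of glia. *Eaat1* had 21.9 CPM in library B and 36.4 CPM in library D, the libraries lowest and highest in *dsx*. For *tra* they were *Gos28* (0.971), a Golgi SNARE gene, *CG4709* (0.970) and *Oatp33Ea* (0.963), and for *tra2* they were *hfw* (0.985), *ZnT63C* (0.976), a zinc transporter gene, and *CG3919* (0.975). For *ix* they were *CG18731* (0.978), *tRNA:His-GTG-1-4* (0.974) and *CG40472* (0.972), and for *her* they were *Elp4* (0.994), an Elongator subunit gene, *CG4872* (0.971) and *snama* (0.963). For *dsf* they were *bam* (0.994), a gene of germ line differentiation with 1.65 to 6.63 CPM here, *CG10669* (0.966) and FBgn0259234 (0.960), to which no symbol was matched. Both *dsf* and *bam* were highest in library D and lowest in library E.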

How the data were processed

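Reads were counted per gene by the authors with featureCounts, and the deposited counts are whole numbers without normalization or pooling. The labels name the dm6 build and ribosomal RNA depletion, and the methods a stranded mRNA kit. Aligner, strand setting and annotation: not given in the sources used here. Overlapping genes may therefore share counts. Of the table's columns, 8 are named for a knockout and were not used. The labels call the samples separate cultures, and p-values measure only the spread between these 7 libraries.

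CPM were computed by library total. Symbols, coordinates and exon lengths came from the annotation BDGP6.54 of Ensembl release 115, which gave a symbol for 17626 of 17753 identifiers. BCV are tagwise values of edgeR 4.0.16 (R 4.3.3) with TMM scaling and an intercept only, over all detected genes, and level bins are 20 equal parts of these genes. Correlations used log2(CPM + 1) and all 5040 pairings of the libraries for an exact two-sided permutation p, adjusted over all detected genes for each of 20 measures on the x axis. Both steps were checked on simulated data. Alternatives were TMM and DESeq2 1.42.0 size factors, totals without *Arc1*, a pseudocount of 0.1 CPM, other filters, *roX2* or *msl-2* in place of *roX1*, and each library left out in turn. Python 3.11.15 with scipy 1.17.1 was used.

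Members, marker lists and pathway lists were chosen with earlier results of these data known, and the relations with marker sums and with *Sxl*, with their alternatives, were singled out after their values were seen. Named genes are the members, the highest and lowest detected gene of each pathway list, *Sxl*, *roX1*, *roX2*, *msl-2*, *Yp1*, *lov* and the 3 genes most like each member, and genes under the detection limit were added after their values were seen. *nos*, of the germ line list, was not analysed here. A gene of the pathway lists is not reported here.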

Additional observations from a re-analysis of the deposited data

Results flagged for a closer look

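In 7 of 22 measures checked for a single library far from the other 6, the gap to the next value was larger than Dixon's limit, and chance alone gives about 1 in 20, or 1.1 of 22. In 6 of the 7 the library was D. Its level was 378 CPM of *Yp1* (13.0 to 116 in the others), 66.7 CPM of summed hemocyte markers (29.7 to 35.1), 93.6 CPM of muscle markers (12.7 to 29.1), 575 CPM of fat body markers (47.9 to 172), 1288 CPM of photoreceptor markers (110 to 325) and 742 CPM of the 3 yolk protein genes (24.6 to 239), of which *Yp1* is 1. The sum of the germ line markers was low in library C, at 53.6 CPM against 67.3 to 77.3 CPM in the others. None of the 7 sex determination genes had such a gap, although *dsx*, *dsf*, *ix* and *fru* were highest in library D.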

How the results depend on the processing

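No paired analysis was possible because the samples analysed here form 1 group. The 7 genes also had at least 1 CPM in every library. The other filters were looser than the main one, and leaving out a library cannot lose a detected gene. Those alternatives were therefore no check of detection. With other scalings, mean levels moved by less than the SD in 19 cases and by more in 2. Both of the latter came from totals without *Arc1*, which took 13.6% of all counts, and moved *tra* to 26.1 and *ix* to 11.2 CPM. Leaving out 1 of 7 libraries cannot move a mean by its SD, so those 49 alternatives could not fail and were no check. The BCV of *tra*, 0.133, compares with 0.0867 as a plain coefficient of variation.

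The r of *fru* with *roX1* kept its sign and an unadjusted exact p under 0.05 in the alternatives of scaling, pseudocount, filter and *roX2* or *msl-2*, and without each library, at -0.928 to -0.839 without single libraries, and its adjusted exact p ranged from 0.309 to 0.787. The r of *dsx* with *roX1* reversed to 0.602 without library D, from a range of -0.556 to 0.602. The number of genes with an unadjusted exact p under 0.05 for *roX1* ranged from 550 to 943 without single libraries, with 550 when library D was left out. With TMM scaling *fru* with *tra2* was -0.781 (exact p = 0.0401). The causes were not tested. At these depths *dsx* and *dsf* rest on as few as 30 and 60 counts in a library, and splice forms of either sex were not resolved.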
